A study of Mus musculus with 6 samples.

Results

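The glycine receptor genes Glra1, Glra2, Glra3 and Glrb, the scaffold gene Gphn and the chloride transporter genes Slc12a5 and Slc12a2 were described in the deep cerebellar nuclei of mice trained in eyeblink conditioning. Their probe sets were found through the platform annotation of 3 array designs, by current or older symbol, and those that name only one of these genes were used. This gave 7 probe sets of 36701 in all, without controls, for 5 of the 7 genes, among 15964 genes with a probe set of their own. Glra1, Glrb and Slc12a2 had 1 probe set each on design A, and Gphn and Slc12a5 had 1 on design A and 1 on design C. No probe set annotated with Glra2 or Glra3 alone was found, and design B held no such probe set of any of the 7 genes.

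The mice were male C57BL/6, 11 to 18 weeks old, and carried 4 wires in the left eyelid. Over 7 days the paired group received a tone of 352 ms with an eyelid shock of 100 ms that began 252 ms after tone onset and ended with it. The unpaired group received the same stimuli apart from each other in pseudorandom order. Tissue around the anterior interpositus nucleus was taken with syringe needles 10 to 30 min from sacrifice, and 10 to 15 nuclei of the operated side were pooled. Each group was then measured on 1 array of each design, so every value below is 1 array per pool. Whether a group's arrays shared 1 RNA extract is not stated in the labels. No difference could be set against the spread between pools, no p-value is given, and the number of arrays limits the precision.

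Neurons of these nuclei are inhibited by Purkinje cells, which release GABA, and by local glycinergic cells. The glycine receptor is a chloride channel made of alpha subunits, which can form channels on their own, and beta subunits, which tie the receptor to gephyrin, the scaffold of inhibitory synapses. Whether the open channel inhibits depends on chloride inside the cell, which KCC2, the product of Slc12a5, lowers and NKCC1, the product of Slc12a2, raises. In the brain KCC2 is largely a neuronal protein, while NKCC1 is also found in glia, vessels and choroid plexus.

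Slc12a2 gave the largest difference of the 7 probe sets and was lower in the paired pool, while the glycine receptor, gephyrin and Slc12a5 probe sets differed by 1.19-fold or less. Glrb and both Gphn probe sets were also lower in the paired pool, Glra1 was nearly the same in both pools, and the probe sets of Slc12a5 lay on either side of 0. By sign, 5 probe sets were lower and 2 higher, with a median log2 ratio, paired minus unpaired, of -0.12. The signal filter, a mean signal no lower than the design's median, was passed by 18351 probe sets. Their median was set to 0.00 by the scaling, so equal shares on either side were fixed in advance. None of the 7 probe sets was past 1.5-fold, a log2 ratio of 0.58 either way. Past that size were 0.349% of the 18351 probe sets on the higher side and 0.332% on the lower side, 0.580% of those on design A and 0.640% of those on design C in either direction.

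**Figure D1:**
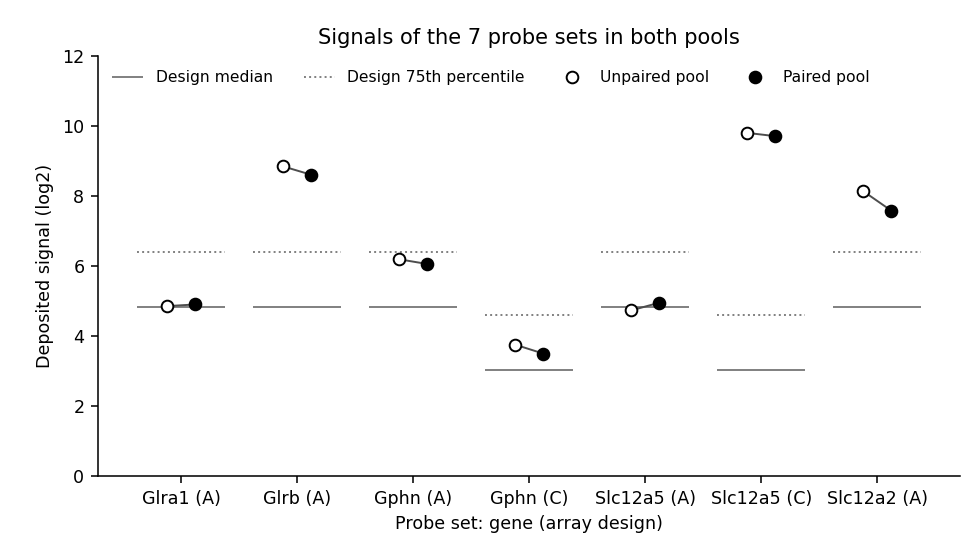
Deposited log2 signal of each probe set in the unpaired pool (open circles) and the paired pool (filled circles), 1 array each, with the median (solid line) and 75th percentile (dotted line) of the mean signals of its design. Glrb, Slc12a2 and the design C probe set of Slc12a5 lie above the 75th percentile, and Glra1 and the design A probe set of Slc12a5 lie close to the median.

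The alpha 1 subunit gene Glra1, which is mutated in spasmodic mice, gave log2 signals of 4.85 (unpaired) and 4.90 (paired). These signals stood at the 51.0 and 51.1 percentile of all probe sets of their array, so that they were nearly the same in both pools and close to the middle of the design. The log2 ratio after scaling the arrays of the design to each other was 0.06. The 500 probe sets of the design nearest in mean signal had log2 ratios with a median of 0.06 and an SD of 0.21. This SD is a spread over different genes and not the error of a single gene between pools. Of these neighbours, 394 differed between the pools by at least as much as Glra1. The log2 ratio of Glra1 was 0.011 under loess scaling and 0.007 under quantile scaling.

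Glrb, the gene of the beta subunit and the one mutated in spastic mice, read 8.84 in the unpaired pool and 8.61 in the paired one on the log2 signal scale, at the 96.2 and 95.5 percentile. It was the brighter of the receptor probe sets, but signals of different probe sets also depend on their sequences and do not order the mRNA levels of the subunits. The paired pool was lower by 1.17-fold, a log2 ratio of -0.23 against an SD of 0.16 among the 500 nearest probe sets. Of these, 83 differed by at least as much, and their median was -0.04. The log2 ratio of Glrb was -0.18 under loess scaling and -0.17 under quantile scaling. The log2 ratio of Glra1 exceeded that of Glrb by 0.28, with an SD of 0.26 from the neighbours of both. The medians of these neighbours, 0.06 for Glra1 and -0.04 for Glrb, differed in the same direction. Loess and quantile scaling brought the log2 ratios of Glra1 and Glrb closer together.

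Gphn encodes gephyrin, which anchors glycine and GABA-A receptors and also carries out the last steps of molybdenum cofactor synthesis. On design A its log2 signal was 6.19 in unpaired and 6.06 in paired mice, at the 72.0 and 69.9 percentile. On design C it was 3.75 and 3.50, at the 63.3 and 59.0 percentile. The design C probe set has a suffix that marks probes picked under relaxed rules. The paired pool was lower on both designs, with log2 ratios of -0.12 and -0.25. The SD among the nearest 500 probe sets was 0.19 on design A and 0.20 on design C, and 238 and 99 of them differed by at least as much. The log2 ratios of the Gphn probe sets were 0.12 apart, less than the 0.27 given by the SDs of both.

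**Figure D2:**
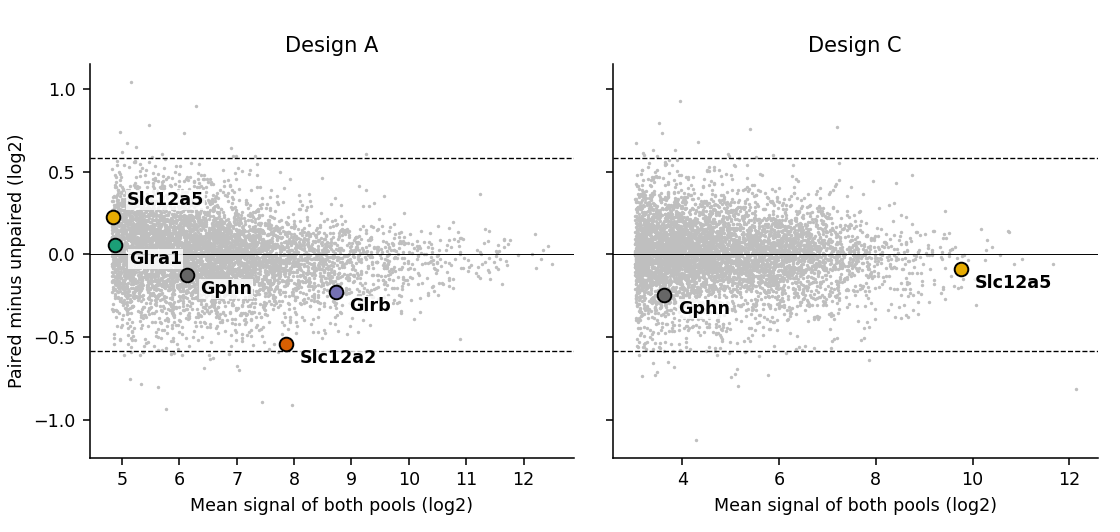
Log2 ratio, paired minus unpaired, against the mean log2 signal of both pools for the probe sets of designs A and C above the signal filter (grey), with the members coloured and the 1.5-fold size dashed. Slc12a2, at -0.54, lies at the lower edge of the design A probe sets of its signal, and the other members lie inside the grey cloud.

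Slc12a5, the neuronal potassium-chloride cotransporter gene, was read by a dim and a bright probe set. The dim one, on design A, had log2 signals of 4.73 (unpaired) and 4.95 (paired), at the 48.9 and 52.1 percentile. Its mean of 4.85 lay just above the design's median of 4.82, so that it entered through its paired value. The bright one, on design C, had 9.80 and 9.71, at the 99.8 percentile in both pools. The dim probe set was higher and the bright one lower in the paired pool, with log2 ratios of 0.23 and -0.09. The first was slightly more than the SD of its 500 nearest probe sets, 0.20, and the second less than theirs, 0.17, and 134 and 261 of these neighbours differed by at least as much. The neighbours of the dim probe set had a median of 0.06, and its log2 ratio was 0.18 under both loess and quantile scaling. The log2 ratios of the Slc12a5 probe sets were 0.31 apart, against 0.27 from the SDs of both. Their mean of 0.07 therefore rested on the dim probe set, and the bright one alone gave -0.09.

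Slc12a2, the sodium-potassium-chloride cotransporter gene, gave log2 signals of 8.14 (unpaired) and 7.59 (paired), at the 92.9 and 89.6 percentile of design A. The paired pool was lower by 1.46-fold, a log2 ratio of -0.54, which is -3.26 in units of the SD of 0.17 among the 500 nearest probe sets. These units count from 0, while the median of the neighbours was -0.04. They describe a spread over genes and hold no spread between pools. Of these neighbours 2 differed by at least as much. Of the 6211 probe sets of design A above the signal filter, 35 had a log2 ratio as low as or lower than Slc12a2, itself among them. The log2 ratio was -0.51 under loess scaling and -0.50 under quantile scaling. It is the reading of 1 probe set, which no other probe set of the gene could be set against.

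The difference in log2 ratio between the chloride transporters was taken because both act on the same gradient. With the bright Slc12a5 probe set of design C, the log2 ratio of Slc12a5 exceeded that of Slc12a2 by 0.46, with an SD of 0.24 from the neighbours of both, across designs that were scaled separately. With the dim probe set of design A the difference was 0.77, given as a description only, since that probe set passed the signal filter through its higher, paired value. Both differences hold the same Slc12a2 value of -0.54, and the Slc12a5 values of 0.23 and -0.09 account for the gap between them. In pooled tissue, fewer cells of a type and less RNA per cell cannot be told apart.

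**Figure D3:**
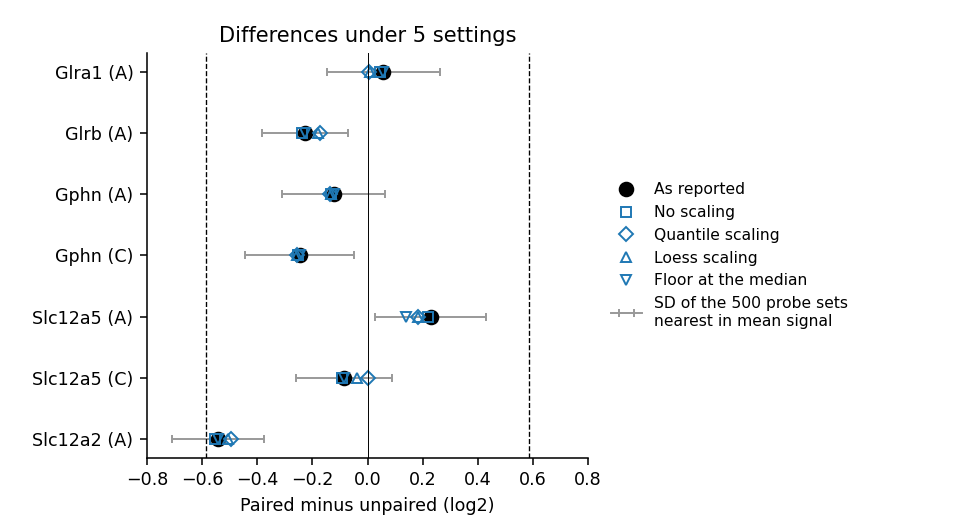
Log2 ratio, paired minus unpaired, of each probe set as reported (black, with the SD of the log2 ratios of its 500 nearest probe sets) and under other scalings or a floor at the design's median (blue), with the 1.5-fold size dashed. Slc12a2 stays between -0.55 and -0.50, and the design C probe set of Slc12a5 reaches 0.00 under quantile scaling.

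Other genes of glycinergic and chloride signalling were taken from 6 lists with a measured gene, by the mean log2 ratio of each gene's probe sets above the signal filter. Of 77 listed genes, Glra4 included, 66 had a probe set annotated with their symbol alone and 57 one above the filter. None of the 57 was past 1.5-fold, and none was as low as Slc12a2. In all 23 were higher and 34 lower, with a median of -0.02, beside a median of -0.0039 over all 10579 genes, of which 0.388% were past 1.5-fold.

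Gephyrin partners and scaffold genes of the inhibitory synapse had a median of -0.11, and 8 of 13 genes were lower. Pacsin1, a membrane-trafficking gene, had -0.29 and Gabarap, which takes part in GABA-A receptor trafficking, -0.26. The other molybdenum cofactor genes divided evenly, 2 of 4 higher, with a median of -0.03, Mocs3 at 0.15 and Mocs1 at -0.14. The Mocs3 value is the mean of 0.07 and of 0.23 from a probe set that passed the filter through its paired value.

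Genes of glycine supply and removal were higher in 3 of 7, with a median of -0.02. Dld, the dihydrolipoamide dehydrogenase gene of the glycine cleavage system, had -0.36, and Shmt1, which interconverts serine and glycine, 0.29. Slc6a9, the glycine transporter gene of glia, had log2 signals of 9.13 (unpaired) and 9.10 (paired), and Slc32a1, the vesicular transporter gene of GABA and glycine, 9.02 and 8.79. These were named after their values were seen, as the synaptic transporters of the list. Slc6a5, the neuronal glycine transporter gene, had no probe set annotated with its symbol alone.

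The other cation-chloride cotransporters had 3 measured genes, 2 of them higher, with a median of 0.12, Slc12a8 at 0.14 and Slc12a3 at 0.12. Kinases and partners that act on these cotransporters had a median of -0.02, and 11 of 16 genes were lower. Klhl2, a ubiquitin ligase adaptor gene for WNK kinases, had -0.46 on 1 probe set above the filter. Oxsr1, a kinase gene downstream of the WNK kinases, had 0.26, the mean of 3 probe sets that were all higher, from 0.12 to 0.48. Other chloride and bicarbonate transport genes were lower in 8 of 14, with a median of -0.03. Slc4a2, an anion exchanger gene, had -0.41, from signals of 7.77 (unpaired) and 7.35 (paired), and Slc4a8, a sodium-coupled bicarbonate transporter gene, had 0.23.

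**Figure D4:**
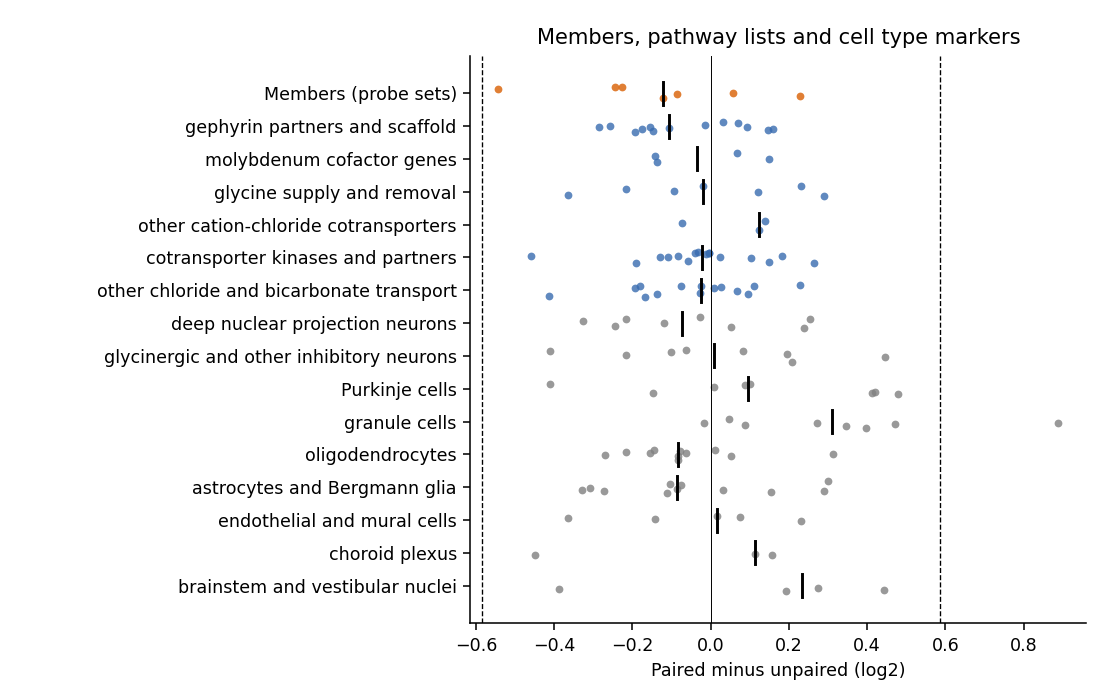
Log2 ratio, paired minus unpaired, of the 7 member probe sets (orange), of genes of the pathway lists (blue) and of cell type markers (grey), with the median of each row as a black bar and the 1.5-fold size dashed. Slc12a2 is the lowest point, and Gabra6, a granule cell marker at 0.89, is the point past 1.5-fold. That is the mean of 0.73 and of 1.04 from a probe set that passed the filter through its paired value.

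The tissue label was set against marker genes. Slc17a6, the glutamate transporter gene of the projection neurons, had 3 probe sets above the filter. The brightest, with a letter suffix in its identifier, stood at the 99.9 percentile of design C in both pools. Another on design C stood at the 81.9 (unpaired) and 81.1 (paired) percentile, and the one on design B at 79.3 and 90.3, with a log2 ratio of 0.85 that was past 1.5-fold. Nefh, a neurofilament gene, stood at the 97.8 percentile of design A in the unpaired pool. Lhx2, Lhx9, Tbr1 and Meis2 did not reach the signal filter. Of 8 measured granule cell markers, which belong to the cerebellar cortex, 7 were higher in the paired pool, with a median of 0.31. Their summed signal on a linear scale was 827 (unpaired) and 968 (paired) on design A, 22.9 and 23.8 on B, and 180 and 232 on C. On design B only 1 granule cell probe set was above the filter, so that value is a single reading. Purkinje cell markers were higher in 6 of 8, with a median of 0.09. Their summed signals were 1169 and 1170 on design A, 24.0 and 21.9 on B, and 58.3 and 83.2 on C. The design A sum includes Gad1, at -0.41, which is also counted among the inhibitory neuron markers, and the design B value is 1 probe set.

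Markers of cells that can hold NKCC1 outside neurons were set beside Slc12a2. Oligodendrocyte markers had a median of -0.08, with 8 of 11 genes lower, and their summed signal on design A was 8169 (unpaired) and 7829 (paired), with 2033 and 1921 on B and 1104 and 998 on C. Mbp, a myelin gene, had -0.08. The gene means ran from -0.27 for Sox10, whose probe sets lay between -0.53 and -0.02, to 0.31 for Olig2. Astrocyte and Bergmann glia markers were lower in 7 of 11, with a median of -0.09, Gfap at -0.27 and Aqp4 at 0.30. Their sums were higher in the paired pool on designs A (5036 and 5243) and B (2671 and 3020) and lower on C (743 and 619). Choroid plexus markers had 3 measured genes of 8, with Ttr at -0.45, the other 2 higher, and a median of 0.11. Their sums were 112 and 97.8 on design A, 28.5 and 33.0 on B, and 46.8 and 50.1 on C, with 1 probe set on B. Kl, Kcne2 and Aqp1 did not reach the filter. Endothelial and mural markers had a median of 0.02 over 5 genes, 3 of them higher, with Cldn5 at -0.37 and Pecam1 at 0.23. Their sums were lower in the paired pool on each design, 425 and 396 on A, 172 and 163 on B, and 44.8 and 36.5 on C. The design C value is 1 probe set. Cdh5, Kdr, Tek and Pdgfrb did not reach the filter. The part of these cell types in the Slc12a2 value was not tested.

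The markers of inhibitory neurons had a median of 0.01 over 8 genes, 4 of them higher. The first in the list after Slc6a5 were Gad1 at -0.41 and Gad2 at 0.44, each on 1 probe set above the filter. Below the filter, Gad2 had -0.12 on design A and -0.02 on C, and Gad1 had 0.03 on B. Projection neuron markers were lower in 5 of 8, with a median of -0.07, and brainstem and vestibular markers higher in 3 of 4, with a median of 0.23, on 4 measured genes of 10. The part of these cells in the values of Glra1, Glrb, Gphn and Slc12a5 was not tested.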

How the data were processed

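The authors deposited 1 signal per probe set and array, read here as log2 from its range; how it was summarized and normalized is not given in the sources used here. Of 36701 probe sets left without 198 controls, 29131 had a single symbol in the platform annotation, which can be old. Of these, 29044 were matched by gene identifier to the RefSeq table of assembly GRCm38.p6, and the symbol given there was used.

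Designs were handled apart. The paired array was moved by a constant that set the median log2 ratio of the brighter probe sets, which was -0.010 (A), -0.0084 (B) and -0.0067 (C), to 0, signals under the 25th percentile were raised to it, and probe sets with a mean signal no lower than the median were kept. No member signal needed raising. Neighbours were the 500 probe sets of a design nearest in mean signal. Summed signals are sums of 2 to the power of the scaled log2 signal over the kept probe sets of a list.

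Of each pathway list the 2 genes with the largest absolute log2 ratio were named, and of the marker lists the first measured genes. Purkinje cell markers, apart from Gad1, and brainstem and vestibular markers were given by list only. Any other named genes were added after their values were seen. Members and lists were chosen with earlier results of these data known. The steps, run in Python 3.11.15 with pandas 2.3.3 and statsmodels 0.14.6, were tested on simulated data. Alternatives were other scalings, floors and signal filters, no suffixed probe sets, single designs, the brightest probe set, and each gene left out.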

Additional observations from a re-analysis of the deposited data

How the results depend on the processing

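The median log2 ratio over the member probe sets was below 0 in all 15 alternatives, from -0.23 to -0.09, and no member was past 1.5-fold in any of the 8 that recounted them. Each of the 7 probe sets moved by less than the SD of its 500 nearest probe sets, in 51 comparisons. Many of these could not move, so the count does not measure stability. Taking away the floor changed no member, since none was raised, and the filter and suffix settings only choose which probe sets are counted. Only the other scalings and the floor at the median could change a log2 ratio or bring a member past 1.5-fold. The mean log2 ratio of Slc12a5 turned from 0.071 to -0.086 with its brightest probe set alone, and likewise at the stricter filter, the 75th percentile of signal, where only that probe set is left. Counts of all probe sets past 1.5-fold, 64 higher and 61 lower, changed with the number of probe sets considered: 112 and 99 with no signal filter, 24 and 29 at the stricter filter, and 41 and 33 without suffixed probe sets. Glra1, Gphn on both designs and the dim Slc12a5 probe set fall below the 75th percentile of signal. Design B alone gave no member value. No paired analysis was possible because each pool has 1 array per design.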
